A study of Homo sapiens with 4 samples.

Results

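Aminoacyl tRNA synthetases are the enzymes that join each amino acid to its tRNA before protein synthesis. Human cells carry a set that works in the cytosol and a set, also encoded in the nucleus, that works in mitochondria and whose gene symbols mostly end in 2. Here the transcripts of 34 synthetases, 20 cytosolic and 14 mitochondrial, were examined in LNCaP and PC3 cells exposed to atorvastatin (ATO), a statin that blocks cholesterol synthesis at HMG-CoA reductase. The members were taken as every gene probe on the array whose name equalled 1 of the 34 symbols, which gave 37 probes and 55 spots per array among 27274 gene names. The synthetases HARS2, TARS2 and TARSL2, which are on the array and outside these symbols, were read apart.

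LNCaP is an androgen-responsive line and PC3 an androgen-independent line, both from human prostate cancer and both grown in RPMI medium with 10% FBS. Total RNA was hybridised to 1-colour Agilent arrays from 4 groups of 1 array each: LNCaP without treatment (control), LNCaP with 10 µM ATO for 24 h, PC3 control, and PC3 with the same ATO exposure. The labels describe the controls as untreated and name no vehicle for the arrays, and each line stands for 1 established culture rather than for several tumors. All arrays lay on 1 slide, so that position on the slide and group cannot be told apart, and no group had a replicate, so no test was possible within a line. Between 48.5% and 52.9% of the gene spots were well above background. Over the 613 to 668 copied probes well above background on an array, the median SD between copies was 0.0867 to 0.101 on the log2 scale. The line labels were checked against fixed markers: KLK3, the gene of prostate specific antigen, read 65987 and 65646 units on the LNCaP arrays and was not well above background on the PC3 arrays, while CAV1 and CD44 showed the reverse, at 12387 and 7404 units on the PC3 control array.

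Of the 34 members, 30 rested on a single spot per array, MARS on 2 probes, IARS on 3, and NARS and MARS2 on 1 probe printed in 10 copies. A level is given below as processed intensity in array units, which can be compared for 1 probe between arrays but not between probes. Ratios were taken after each array was divided by the 75th percentile of its probes (496.8 units for LNCaP control, 533 for LNCaP ATO, 588 for PC3 control and 569 for PC3 ATO), are given as log2 of ATO over control, and were counted when they reached 1.5-fold, which is 0.58 on the log2 scale. The error given with a log2 ratio is the one that the scanner software attached to the spots. Because the RNA came from whole cultures, fewer cells expressing a gene and less RNA per cell cannot be told apart. A value on all 4 arrays was had for 33 members, and 32 of these were well above background on every array. TARS was set apart since its spot was marked as uneven on 1 array, and MARS2 since it was dim on 3.

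Synthetase genes are known targets of ATF4, the transcription factor of the amino acid and integrated stress responses, which binds with C/EBP partners at elements containing the letters TGATGNAA. That motif was searched on both strands (TTNCATCA on the other) in the RefSeq promoters of GRCh38.p14, from 250 bases before to 50 after each annotated start. It stood in 7 of 16 cytosolic members that had such a window and in 1 of 12 mitochondrial members, against 4.46% of 27305 genes with a window. The matches are shown because they include CARS, the only member to reach 1.5-fold higher after ATO, and AARS, which was among the next highest in PC3 cells; WARS and EPRS, which lay above AARS there, had a window and no match. Each site is written 5′ to 3′ on the strand of its gene, with the motif in capitals, and a match is a run of letters and not a binding site shown by these data.
AARS (chr16:70289675-70289704, first motif base 187 bases before the start): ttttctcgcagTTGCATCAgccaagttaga
CARS (chr11:3057407-3057436, 2 bases before the start): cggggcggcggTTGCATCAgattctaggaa
GARS (chr7:30594834-30594863, 33 bases before the start): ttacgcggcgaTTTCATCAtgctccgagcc
IARS (chr9:92293692-92293721, 13 bases before the start): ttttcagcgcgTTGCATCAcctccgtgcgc
MARS (chr12:57488053-57488082, 4 bases before the start): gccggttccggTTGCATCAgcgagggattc
NARS (chr18:57621804-57621833, 14 bases after the start): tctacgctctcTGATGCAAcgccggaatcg
TARS (chr5:33440956-33440985, 2 bases after the start): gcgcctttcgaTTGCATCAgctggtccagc
YARS2 (chr12:32756076-32756105, 197 bases before the start): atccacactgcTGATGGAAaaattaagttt
The genes GARS, MARS and TARS lie on the plus strand and the other 5 on the minus strand. The cytosolic members with the motif had a median log2 ratio of 0.04 in PC3 cells, and those with a window and no motif had one of -0.01. DARS, LARS, VARS, YARS, AARS2 and VARS2 had no window in the table.

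In LNCaP cells, the synthetases as a group stayed close to their control levels. No member reached 1.5-fold higher after ATO, where 2.77% of the 13739 genes measured did, and 1 of 33, FARSB, was at least 1.5-fold lower, where 1.99% of all genes were. The median log2 ratio was 0.02 over 19 cytosolic members and -0.00 over 14 mitochondrial members, beside 0.00 over all genes. Apart from FARSB, the cytosolic members lay between -0.15 (LARS, leucine) and 0.21 (SARS, serine), and the mitochondrial members between -0.51 (AARS2, alanine) and 0.18 (WARS2, tryptophan).

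**Figure D1:**
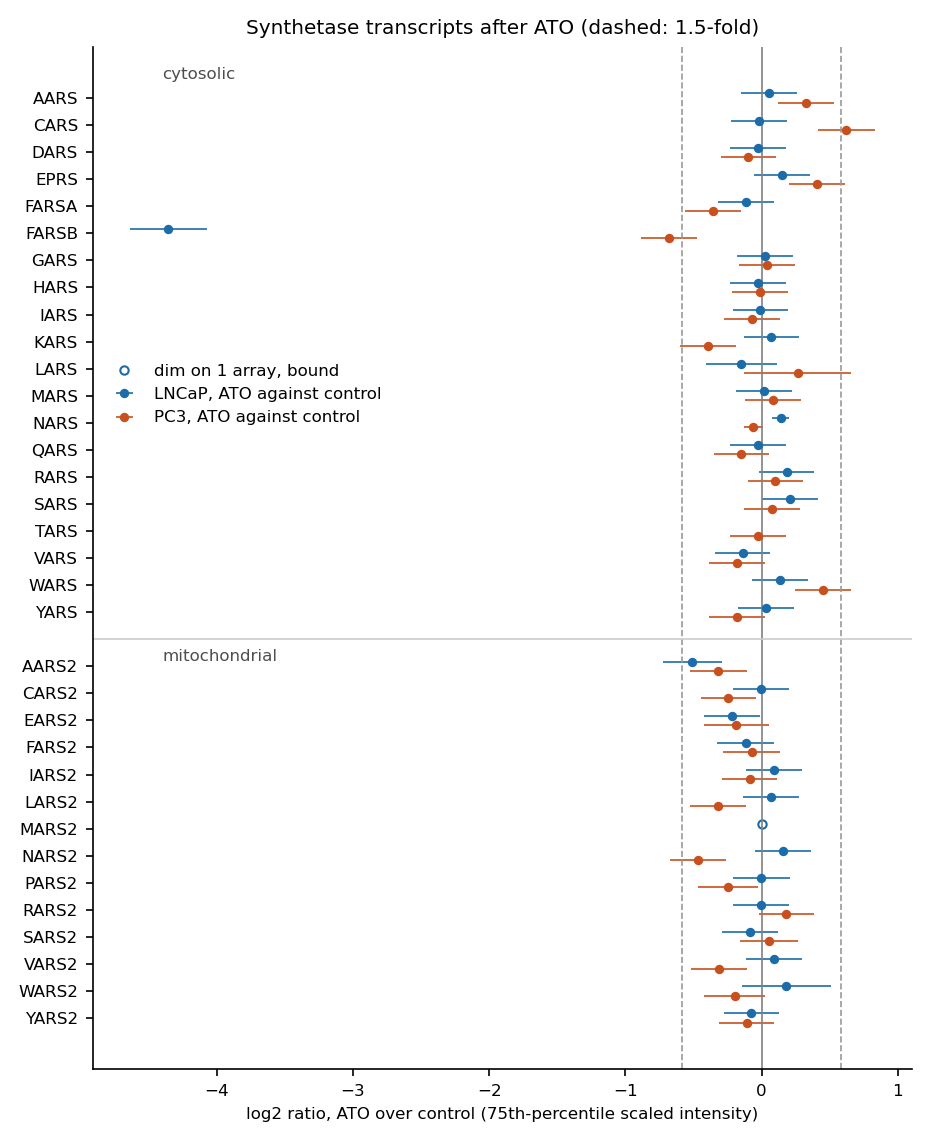
Log2 ratio of ATO over control (x axis) for each synthetase (rows) in LNCaP cells (blue) and PC3 cells (orange), with the scanner's error as the bar, 1 array per group and no replicates. The open circle is a bound for a gene dim on 1 array, and a missing point had no usable spot (TARS in LNCaP) or was dim on both arrays (MARS2 in PC3). FARSB in LNCaP lies at -4.36 and FARSB and CARS in PC3 beyond the dashed 1.5-fold lines, and all other points lie between those lines.

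FARSB, the beta subunit of cytosolic phenylalanyl tRNA synthetase, read 3312 units on the LNCaP control array, 174 on the LNCaP ATO array, 2752 on the PC3 control array and 1664 on the PC3 ATO array. The LNCaP ATO value was thus far below the other 3. The log2 ratio was -4.36 ± 0.28 in LNCaP cells, a 20.5-fold lower level, and -0.68 ± 0.20 in PC3 cells, a 1.60-fold lower level that came to -0.48, short of the threshold, when the arrays were scaled on their 50th percentile. FARSA, the alpha subunit of the same enzyme, read 6902, 6831, 6562 and 4952 units on the 4 arrays in the same order, with log2 ratios of -0.12 in LNCaP and -0.36 in PC3, where its ATO spot lay on a local background of 2.14 times the array's median.

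All FARSB values rested on 1 spot per array of 1 probe, at row 419 and column 47, which lies at chr2:223197246-223197305 on the minus strand (hg18). The probe is shown because the largest ratio among the members hangs on it alone.
FARSB probe: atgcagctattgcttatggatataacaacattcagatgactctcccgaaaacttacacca
Its 60 bases hold a reading frame with 0 stop codons. The spot on the LNCaP ATO array was uneven: its pixels had a mean of 369 units, a median of 287 and an SD of 232, which is 63.0% of the mean, and only 0.168% of the 20894 gene spots well above background on that array had an SD as large relative to the mean. On the other 3 arrays this share was 8.24% to 16.4% of the mean. The scanner software left 5 of the spot's bright pixels out and did not mark it as an outlier. Its local background was 142 units, 1.41 times the median of the array, against 0.967 to 1.19 times the median on the other arrays. Spots elsewhere on the array were read from probes with 1 spot. They were counted only if well above background and not marked as outliers on both arrays of a line. In the lower part of the array, below row 266, 4.90% of the 7201 counted spots differed at least 1.5-fold between the LNCaP arrays. Above it the share was 1.20% of 7323. Within 5 rows and columns of FARSB, 4 of 35 counted spots reached 1.5-fold between the LNCaP arrays, 2 of them lower. The 35 log2 ratios ran from -0.83 to 0.73. A neighbour that was dim or marked as an outlier on 1 array was not counted. The range therefore cannot show whether other spots nearby fell as far as FARSB. The part of the uneven spot in the FARSB value was not tested. In PC3 cells, where the FARSB spots were even on both arrays, 1 of 37 neighbours counted in the same way reached 1.5-fold.

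TARS, which charges threonine, showed the same kind of spot. It read 7128 units on the LNCaP control array, 5678 on PC3 control and 5401 on PC3 ATO, and its spot at row 391 and column 26 of the LNCaP ATO array read 201. That spot had a pixel SD of 115% of its mean, a median pixel of 150 units against a mean of 386, and was marked as an outlier by the software, so TARS had no ratio in LNCaP cells here. The PC3 log2 ratio of the probe was -0.02 ± 0.20, and between the untreated lines it was -0.57 ± 0.20, PC3 being lower. FARSB and TARS were the only member spots well above background whose pixel SD passed 29.3% of the mean on any array.

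**Figure D2:**
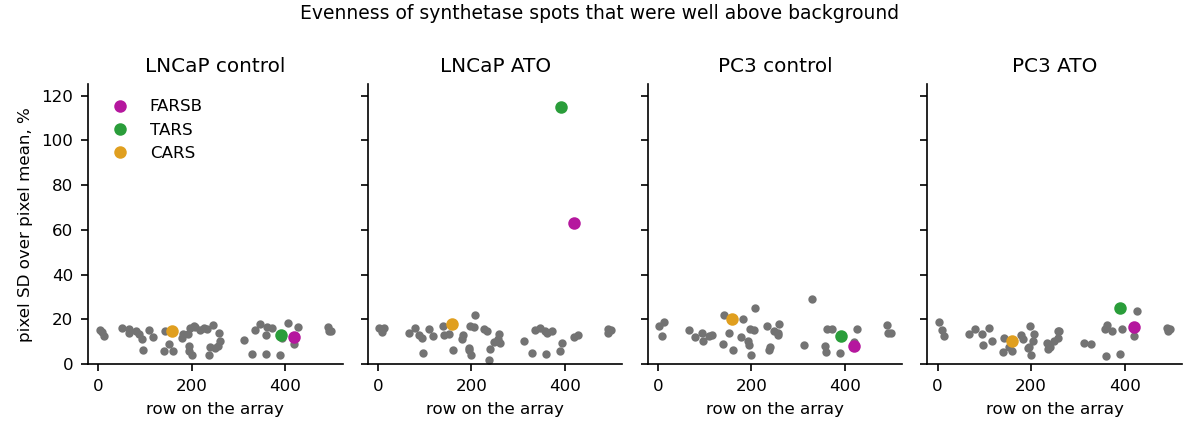
Pixel SD as a percentage of the pixel mean (y axis) against row on the array (x axis) for the synthetase spots that were well above background, 1 panel per array. On the LNCaP ATO array TARS lies at 115% and FARSB at 63.0%, and no spot on the other arrays lies above 29.3%.

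The 10 copies of NARS gave the most precise ratio of the set. NARS charges asparagine and has a motif just after its start. Its copies read 3267 to 3962 units on the LNCaP control array (SD 0.09 on the log2 scale) and 3732 to 4449 on the LNCaP ATO array (SD 0.07). The 2 ranges overlapped, and the log2 ratio was 0.14 ± 0.06. On the PC3 control array 9 copies read 2813 to 3420 units and a further copy, marked as an outlier and left out, read 5738. The 10 copies on the PC3 ATO array read 2705 to 3121 units, overlapping the control range, and the log2 ratio was -0.06 ± 0.07. The copies share 1 extract and describe printing and scanning error only.

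MARS2, the mitochondrial methionyl enzyme, was near the limit of detection. On the LNCaP control array, where it was called well above background, 9 copies read 37.8 to 68.9 units and a further copy, marked as an outlier and left out, read 23.2. The copies read 38.1 to 66.1 units on the LNCaP ATO array, where the probe was not well above background. The bound on its log2 ratio in LNCaP was 0.00. In PC3 cells all copies were not well above background, at means of 18.2 and 12.8 units, and no ratio was taken.

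**Figure D3:**
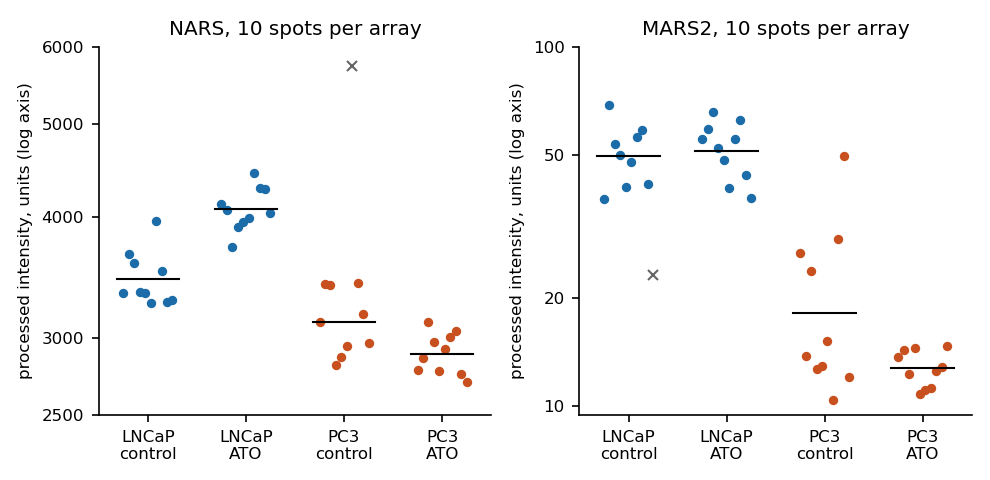
Processed intensity in units (log y axis) of the 10 copies of the NARS probe (left) and the MARS2 probe (right) on each of the 4 arrays, where points are spots, crosses are spots marked as outliers and left out, and lines are geometric means. The NARS copies centre on 3453 units on LNCaP control, 4081 on LNCaP ATO, 3117 on PC3 control and 2894 on PC3 ATO, with overlapping ranges within each line.

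In PC3 cells, ATO was followed by a small and mixed shift of the cytosolic synthetases and by mostly lower readings of the mitochondrial ones. CARS alone was at least 1.5-fold higher, 1 of 32 members where 8.2% of the 13815 genes measured were, and FARSB alone was at least 1.5-fold lower, where 10.3% of all genes were. The share of members past the threshold was thus below that of all genes in both directions. Of 19 cytosolic members, 9 lay above 0 and 10 below, with a median log2 ratio of -0.01, the same as over all genes. Of 13 mitochondrial members, 11 lay below 0 with a median of -0.20, where 50.7% of all genes lay below 0. When the arrays were scaled on their 50th percentile instead, the median was 0.19 for cytosolic members, -0.0014 for mitochondrial members and 0.19 for all genes, so that the mitochondrial members were lower relative to all genes under either scaling and centred near 0 under the latter.

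CARS, which charges cysteine, read 601 units on LNCaP control, 636 on LNCaP ATO, 458 on PC3 control and 682 on PC3 ATO. In these unscaled units the PC3 control array was the lowest of the 4, and the PC3 ATO array the highest. After scaling, PC3 control was still the lowest, at a log2 value of -0.36. PC3 ATO (0.26) then lay level with LNCaP control (0.27) and LNCaP ATO (0.26). The log2 ratio was 0.62 ± 0.21 in PC3 cells, a 1.54-fold higher level just past the threshold that came to 0.54, short of it, when scaled on spike-in probes, and -0.02 ± 0.21 in LNCaP cells. Its single probe, shown as the only one to reach the threshold upward, lies at chr11:2995059-2995679 on the minus strand (hg18), a span of 621 bases for 60 bases of probe, so that its match in the genome is split.
CARS probe: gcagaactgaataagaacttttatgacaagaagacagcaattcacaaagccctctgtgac
The CARS spot lay in a bright patch of the PC3 ATO array, with a local background of 191 units, 2.12 times the array's median, against 0.878 to 1.02 times the median on the other arrays. Within 5 rows and columns of it, 4 of 40 single spots, counted as for FARSB, reached 1.5-fold in PC3 cells, 2 of them lower. The part of the local background in the CARS value was not tested, and the gene is left with no value when spots with a local background over 1.5 times the median are set aside, which leaves 24 members with a PC3 ratio and 25 with an LNCaP ratio.

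The next highest cytosolic members in PC3 cells stayed under the threshold. WARS, the tryptophanyl enzyme, read 2154 units on PC3 control and 2847 on PC3 ATO, a log2 ratio of 0.45 ± 0.20. On the LNCaP arrays it read 3034 and 3572 units, a ratio of 0.14. The local background of its spot was 1.94 times the median on the LNCaP ATO array and 1.43 times on the PC3 control array. EPRS, which charges both glutamic acid and proline, read 6330 and 8129 units in PC3 (0.41 ± 0.20) and 6123 and 7284 in LNCaP (0.15). AARS, the alanyl enzyme, read 1488 and 1804 units in PC3 (0.33 ± 0.20) and 5267 and 5860 in LNCaP (0.05). With normexp background correction AARS lay at -0.02 in LNCaP, and WARS at 0.22 in LNCaP and 0.12 in PC3, so neither the direction of AARS in LNCaP nor the order of the lines for WARS held in that setting. LARS followed at 0.26 ± 0.39, an error wider than the value, from 66.5 and 77.3 units.

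At the other end, KARS, the lysyl enzyme of both compartments, read 10589 units on PC3 control and 7790 on PC3 ATO, a log2 ratio of -0.39 ± 0.20. GARS, the glycyl enzyme that also serves both compartments, read 1281 and 1275 units, a ratio of 0.04 ± 0.20, with a local background of 1.65 times the median on the PC3 control array. The remaining cytosolic members (DARS, HARS, IARS, MARS, QARS, RARS, SARS, VARS and YARS) lay between -0.18 and 0.10. The lowest mitochondrial members in PC3 cells were NARS2 at -0.47 ± 0.20, from 1215 to 848 units, LARS2 at -0.32, AARS2 at -0.32 and VARS2 at -0.31. CARS2, EARS2, FARS2, IARS2, PARS2, WARS2 and YARS2 lay between -0.25 and -0.07. RARS2 (0.18) and SARS2 (0.05) were the only mitochondrial members above 0.

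Genes measured by several probes gave ratios of like size. The 3 IARS probes, for the isoleucyl enzyme, gave -0.01, 0.05 and 0.13 in LNCaP cells, and -0.07 and -0.12 in PC3 cells, where the third was not well above background. The 2 MARS probes, for the methionyl enzyme, gave 0.02 and 0.14 in LNCaP and 0.09 and 0.02 in PC3, and in the untreated lines -0.60 and -0.41, of which the first alone passed 1.5-fold.

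Synthetases fall into 2 classes by the fold of their active site, and 8 of the cytosolic members join in the multisynthetase complex. In PC3 cells, the class I members had a median of -0.10 over 18 genes, with CARS past the threshold, and the class II members one of -0.08 over 14, with FARSB past it. The 8 enzymes of the complex had a median of 0.01, with 4 above 0 and 4 below. Its scaffold proteins AIMP1, AIMP2 and EEF1E1 lay at -0.08, -0.11 and -0.47. In LNCaP cells the same scaffolds lay at -0.07, -0.09 and -0.09, and the enzymes of the complex had a median of 0.00.

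The only test that these arrays allowed took the 2 lines as replicates of the treatment, with line as a covariate and 1 residual degree of freedom (limma, two-sided, Benjamini-Hochberg over 11902 genes). None of the 32 members tested had an adjusted p under 0.05, and neither did any other gene, while 4.47% of all genes had an unadjusted p under 0.05. Among the members AARS2 alone did, with a mean log2 ratio of -0.41 (95% confidence interval -0.81 to -0.01, limma adjusted p = 0.762), being lower in both lines. AARS2 read 420.1 and 317 units in LNCaP and 549 and 426 units in PC3. Its LNCaP ATO spot had a local background of 1.40 times the array's median. On the PC3 ATO array its pixel SD was 23.9% of the mean, a share reached by 1.60% of the spots well above background there. The part of either in the AARS2 values was not tested. For FARSB the mean of -2.52 had an interval of -5.39 to 0.36 (limma adjusted p = 0.762).

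Other genes of tRNA charging and of the integrated stress response were read from fixed lists. The ATF4 response list of 34 genes, of which 32 had a ratio in each line, lay at a median of 0.19 (log2 ratio) for LNCaP and 0.33 for PC3, beside 0.00 and -0.01 over all genes. In PC3 cells 14 of 32 were at least 1.5-fold higher, where 8.2% of all genes were, and 0 lower, where 10.3% were. In LNCaP 3 of 32 were higher, where 2.77% of all genes were, and 0 lower, where 1.99% were. ATF4 itself read 11513 and 16701 units in PC3, a ratio of 0.58 that only just reached the threshold, and 19616 and 27903 in LNCaP (0.41).

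DDIT4, an inhibitor of mTORC1 signalling, gave the largest PC3 ratio of that list at 2.23, and DDIT3, which encodes the stress factor CHOP, read 939 units on PC3 control and 3383 on PC3 ATO, a ratio of 1.90. CHAC1, a glutathione-degrading enzyme, lay at 1.77 in PC3, the pseudokinase TRIB3 at 1.15 and asparagine synthetase ASNS at 0.88, against 0.62, 0.30 and 0.33 in LNCaP. On the same PC3 arrays the cytosolic synthetases lay between -0.68 and 0.62. XPOT, which exports tRNA from the nucleus, lay at 0.21 in PC3 and 0.15 in LNCaP. Of the kinases that start the integrated stress response, EIF2AK4, the sensor of uncharged tRNA known as GCN2, lay at -0.31 in PC3 and -0.03 in LNCaP. EIF2AK3, the PERK kinase, was 2.87-fold higher in PC3, from 77.2 to 214 units. Its control reading was dim, near the lowest detected value of that array, 52.1 units.

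Of 20 genes for tRNA maturation and export, 3 were at least 1.5-fold lower in PC3 cells, where 10.3% of all genes were, and 0 higher, with a median of -0.28 and 16 below 0, where 50.7% of all genes lay below 0. Among these were the RNase P subunit RPP30 (-0.84) and, named after its value was seen, the pseudouridine synthase PUS7 (-0.77). No cytosolic translation factor of 19 and no mitochondrial one of 13 reached 1.5-fold in PC3, with medians of -0.09 and -0.20. The cytosolic factors farthest from 0 were EIF2B3 (-0.49) and EIF2S1 (-0.45), subunits of the initiation factors eIF2B and eIF2, and the mitochondrial ones were the initiation factors MTIF2 (-0.40) and MTIF3 (0.37). The mitochondrial synthetases and the mitochondrial factors thus had the same median. Of the synthetases read apart, HARS2 lay at 0.22 and TARS2 at -0.16 in PC3, and TARSL2, named after its value was seen, was 1.83-fold higher in LNCaP, from 208 to 409 units.

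**Figure D4:**
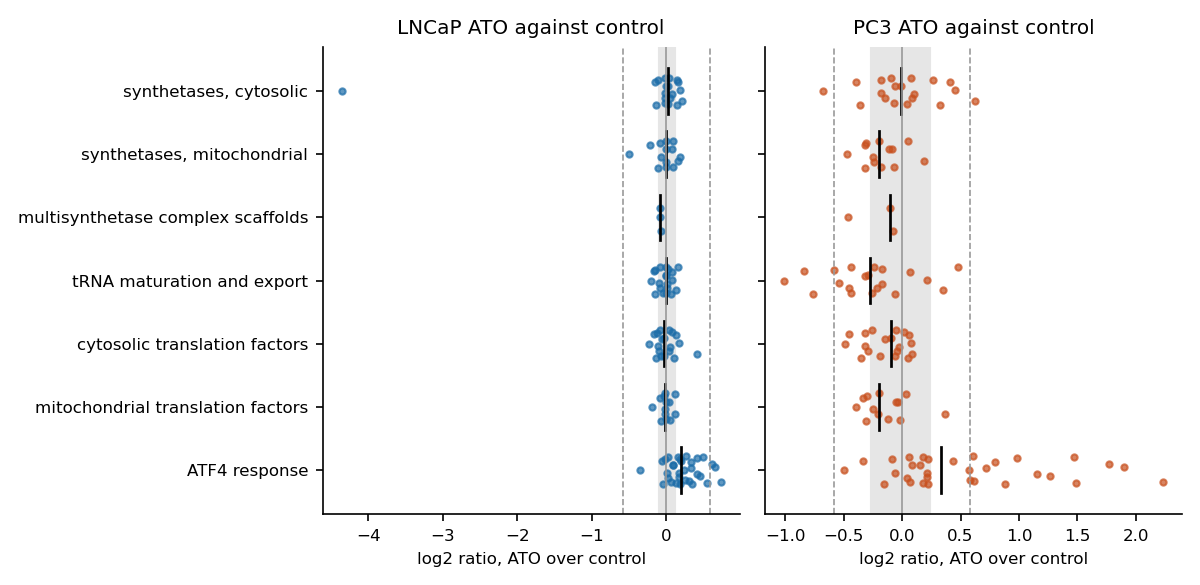
Log2 ratio of ATO over control (x axis, with a wider range in the left panel) for the genes of each fixed list in LNCaP (left) and PC3 cells (right), with the list median as a black bar, the middle range of all genes from the 25th to the 75th percentile in grey, and 1.5-fold as dashed lines. In PC3 the ATF4 response genes reach 2.23 with a median of 0.33, and the cytosolic synthetases lie between -0.68 and 0.62 with a median of -0.01.

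More synthetases differed between the untreated lines than between ATO and control within either line, and so did genes at large. Of all genes, 58.7% differed at least 1.5-fold between the untreated lines, against 4.75% after ATO in LNCaP and 18.5% in PC3. The share of the members between the untreated lines was 42.4%, below that of all genes. In untreated PC3 cells 12 of 33 members were at least 1.5-fold lower than in untreated LNCaP cells, where 30.3% of the 15237 genes measured were, and 2 were higher, where 28.5% of all genes were. The lower ones were AARS, CARS, HARS, IARS, LARS, MARS, WARS, YARS, EARS2, LARS2, SARS2 and YARS2, and the higher ones RARS2 and WARS2. Of 19 cytosolic members, 16 lay below 0 with a median of -0.48, beside a median of -0.05 over all genes. The 14 mitochondrial members had a median of -0.09, with 6 above 0 and 8 below.

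EARS2, the mitochondrial glutamyl enzyme, showed the largest distance, at 1032 units in untreated LNCaP and 236 in untreated PC3, a log2 ratio of PC3 over LNCaP of -2.37 ± 0.22. It read 953 and 201 units on the ATO arrays, so that both LNCaP arrays lay well above both PC3 arrays. AARS followed at -2.07 ± 0.20, with the 5267 and 1488 units given above, and its ATO arrays were apart in the same way. WARS2, the mitochondrial tryptophanyl enzyme, went the other way, at 60.9 units in LNCaP and 259 in PC3, a ratio of 1.85 ± 0.25, and it read 74.0 and 219 units after ATO.

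Among the remaining lower members, SARS2, the mitochondrial seryl enzyme, lay at -1.34, LARS at -1.07 and YARS, the tyrosyl enzyme, at -1.06. RARS2, the mitochondrial arginyl enzyme, lay at 0.75, and GARS was the highest of the cytosolic members at 0.55, under the threshold. The GARS spot on the PC3 control array had a local background of 1.65 times the array's median. The ATF4 response list was also lower in untreated PC3 cells, with a median of -1.01, beside -0.05 over all genes. Of its 33 genes, 22 were at least 1.5-fold lower, where 30.3% of all genes were, and 4 higher, where 28.5% were. The counts moved with the scaling: the 50th percentile, which shifted all genes by -0.44, gave 22 members lower and 1 higher, and the spike-in probes, which shifted them by 0.51, gave 3 lower (AARS, EARS2 and SARS2) and 9 higher. The median over all genes was -0.49 with the former scaling and 0.38 with the latter. AARS, EARS2, SARS2 and WARS2 kept their calls under each scaling tried.

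**Figure D5:**
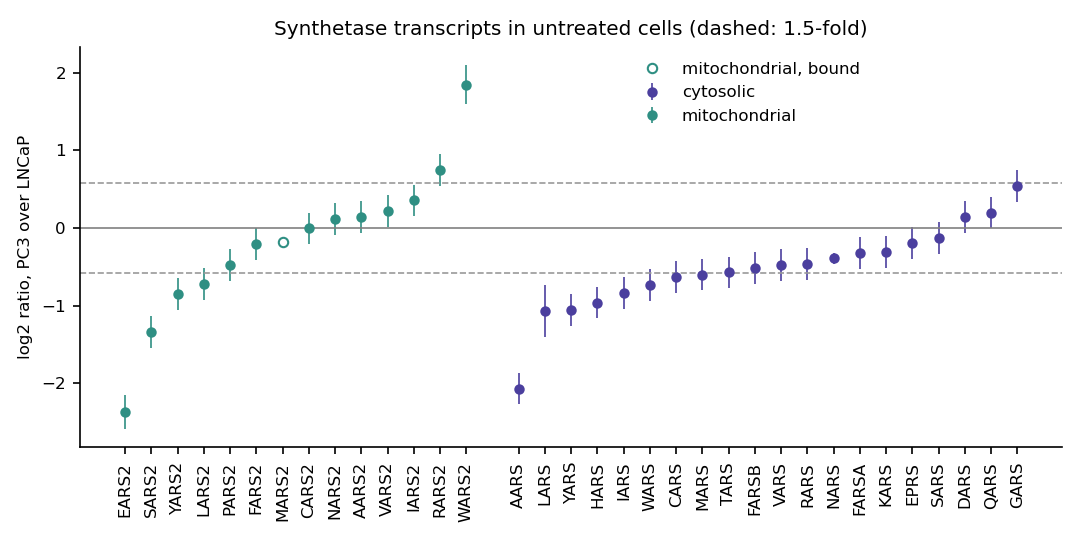
Log2 ratio of untreated PC3 over untreated LNCaP (y axis) for each synthetase, ordered within the mitochondrial (left) and cytosolic (right) sets, with the scanner's error as the bar, 1 array per line, 1.5-fold as dashed lines and the open circle a bound. EARS2 at -2.37 and AARS at -2.07 lie lowest and WARS2 at 1.85 highest, and 16 of 19 cytosolic members with a value on all arrays lie below 0.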

How the data were processed

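Total RNA of 4 samples was measured on 1-colour Agilent arrays. The authors obtained spot intensity values with Agilent Feature Extraction 9.5.3.1, and per the file headers the processed intensity is linear, with a fitted background subtracted and a trend over the slide corrected. The deposited table holds a ratio per probe, the processed intensity over the array's 75th percentile, and was used as an alternative. The deposited files also hold other values per spot, namely pixel counts and the yes or no calls for outlier and well above background used here.

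Outlier spots were left out, log2 intensities of a probe's spots were averaged, and the 75th percentile over probes was subtracted. Over 50% of a probe's kept spots had to carry the well above background call for the probe to count as detected. A gene was read from its brightest probe with unflagged spots on all 4 arrays. Where a probe was well above background on 1 array of a pair only, the ratio is a bound, taken against the dim reading or the array's lowest detected value, whichever was larger. Genes dim on both arrays had no ratio. The only test was limma 3.58.1 in R 4.3.3 (lmFit and eBayes with line as covariate), tested on simulated data first. Precision is limited by 1 array per group. With line as a covariate, the p-values rest on how far the ATO ratios of the lines differed, moderated across genes by eBayes. With 1 array per group, they hold no measure of the spread between replicate cultures.

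The members and all lists were chosen with earlier results of these data known. All 34 members could be named. Full values went to members past 1.5-fold, to those with discordant probes and to FARSB, and of other lists to ATF4, DDIT3, ASNS, TRIB3, CHAC1, XPOT, AIMP1, AIMP2, EEF1E1, EIF2AK4 and the 2 genes farthest from 0 in PC3, of which 1 is not reported here. Further members were given in full after their values were seen. Members were matched to RefSeq promoters by accession, and CARS by its synonym. Probe coordinates are those of the files (hg18). Alternatives were the 50th percentile, quantile normalization, spike-in probes, normexp with an offset of 50, the deposited table, no filter on dim probes, the median over probes, leaving out spots with local background over 1.5 times the array's median, a 2-fold threshold, and an intensity trend in limma.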

Additional observations from a re-analysis of the deposited data

How the results depend on the processing

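FARSB in LNCaP cells kept its direction and its place past 1.5-fold in every setting run, with log2 ratios from -4.38 to -3.75. FARSB and CARS kept their direction in PC3 wherever they had a value. Each of these settings read the same single spot per array. None of them could show the part of the uneven LNCaP ATO spot in the FARSB value. Scaling on the 50th percentile raised the PC3 ratios of all genes by 0.19, which follows from its construction: 3 members were then higher (CARS, EPRS and WARS) and 0 lower, the medians were 0.19 (cytosolic) and -0.0014 (mitochondrial), the untreated lines gave 1 higher and 22 lower, and limma called 5 genes, with 0 members among them. Scaling on spike-in probes raised the LNCaP ratios of all genes by 0.13 and the medians to 0.15 (cytosolic) and 0.13 (mitochondrial), called 0 members higher in PC3, and gave 9 higher and 3 lower between the untreated lines. With normexp, 2 members were lower in PC3, FARSB and VARS2, and the cause was not tested. The deposited table gave 2 members lower in LNCaP, FARSB and TARS, since it keeps the uneven TARS spot. Without spots of bright local background 0 members were higher in PC3, since CARS has no value there. At 2-fold, 0 members were higher and 0 lower in PC3, and the untreated lines gave 1 higher and 5 lower. The other 76 summary values were labelled as unchanged, though some of these counts differed. Without spots of bright local background, 8 members were lower in untreated PC3 against 12 in the main setting, with 25 members left. With normexp, 3 were higher there against 2. The limma fit pairs the arrays by line, and no other paired analysis was possible because each group holds 1 array. Depth was limited by 1 spot per array for 30 members and by dim signal for MARS2.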
